A study of Mus musculus with 1298 samples.

Results

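The collagen genes of the Pax7 lineage were taken as all genes whose symbol reads Col, a number, a, a number. This rule found 44 genes among 26724 genes listed in any of the 3 deposited tables: 43 of 17634 genes in the 10x table, 43 of 22894 in the Smart-seq2 (ss2) table and 44 of 22938 in the bulk table. Col4a3 was not listed in the 10x table and Col10a1 was not listed in the ss2 table. All samples came from mouse embryos carrying Pax7 CreER and R26R-stop-EYFP, given tamoxifen at embryonic day (E) 9.5 at 75 µg per g body weight, so that YFP marks cells that expressed Pax7 at that time and their descendants, whatever they became. YFP+ cells of pooled embryos were profiled singly by 10x, with 1 library each for E12.5, E14.5 and also E16.5, and by ss2 on the same days. The 18 bulk libraries were 2 of freshly sorted Pdgfra-/Cd36+ cells and 4 of freshly sorted Pdgfra+ cells at E16.5, and 6 in DMEM and 6 in adipogenic medium (ADM) of Pdgfra+ cells sorted at E14.5 and cultured. Pdgfra+ cells had been sorted as Thy1+ or Thy1-, but the column names of the bulk table had lost the sign, so Thy1 was not used. The labels date all sorted libraries to E16.5, while the study's text places the sorted Thy1- cells at E14.5, so the day of part of the sorted Pdgfra+ libraries is uncertain. By the study's methods the cultured libraries of a sort were 3 wells and the uncultured ones technical repeats. The 4 sorted Pdgfra+ libraries thus stand for 2 sorted populations and the 2 Cd36+ libraries for 1, and p-values measure in part technical spread.

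Collagens are secreted proteins of 3 chains wound into a triple helix, and they carry much of the strength of connective tissue. Fibrillar collagens (types I, II, III, V, XI, XXIV and XXVII) form fibrils, type IV forms the sheet of basement membranes, type VI forms beaded filaments around cells, and the fibril-associated (FACIT) types, such as XII and XIV, sit on fibril surfaces. Type VII anchors the epidermal basement membrane to the dermis, multiplexins (XV and XVIII) join basement membranes to the tissue around them, and types XIII, XVII, XXIII and XXV span the cell membrane. Dermal fibroblasts and mesenchymal progenitors are known as the main makers of type I and III collagen, while muscle and fat cells are wrapped in a basement membrane. By these families the 44 genes were 11 fibrillar, 9 network (IV, VIII and X), 7 beaded filament (VI and XXVIII), 9 FACIT, 4 transmembrane, 2 multiplexin, 1 anchoring (Col7a1) and 1 other (Col26a1).

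Several collagen genes lie side by side in the mouse genome (GENCODE vM21 annotation of build GRCm38). Col3a1 (chr1:45311538-45349706, plus strand) and Col5a2 (chr1:45374321-45503282, minus strand) lie tail to tail with 24614 bases between them. Col4a1 (chr8:11198423-11312826, minus strand) and Col4a2 (chr8:11312805-11449287, plus strand) lie head to head and overlap by a few bases, Col4a3 and Col4a4 lie head to head 71 bases apart, and Col4a5 and Col4a6 lie head to head 1308 bases apart on the X chromosome. Whether counting in the bulk libraries used strand is not given in the sources used here, so reads in such overlaps may be shared between the partners. Of the 44 genes, 35 had a promoter entry in RefSeq (GRCm38.p6), with 38 windows of 250 bases before an annotated start. The sequence CCAAT, on either strand, was found in 13 of these 38 windows (34.2%), against 33.9% of all 32851 windows of the table. TATAAA, on either strand, was found in 5 of 38 (13.2%), against 12.4% of all windows. A window can hold both motifs, and each was counted on its own. Of the windows, 4 are shown for genes described in what follows: Col3a1 and Col5a1 as fibrillar chains not called between LP-like and DF-like cells, Col11a1 as a fibrillar chain lower in DF-like cells, and Col15a1 as a multiplexin not called between LP-like and EM-like cells. Each sequence runs 5′ to 3′ on the plus strand, which is the gene's strand, and ends at the base before the annotated start. Capitals mark TATAAA in Col3a1 and CCAAT on the opposite strand (written ATTGG) in Col11a1, 79 bases before the start. The Col15a1 window ends before a transcript start that lies upstream of the 5′ end that GENCODE gives for the gene. Neither motif was found in the Col5a1 and Col15a1 windows, which says only that these letters are not in these 250 bases.
Col3a1 (chr1:45311288-45311537): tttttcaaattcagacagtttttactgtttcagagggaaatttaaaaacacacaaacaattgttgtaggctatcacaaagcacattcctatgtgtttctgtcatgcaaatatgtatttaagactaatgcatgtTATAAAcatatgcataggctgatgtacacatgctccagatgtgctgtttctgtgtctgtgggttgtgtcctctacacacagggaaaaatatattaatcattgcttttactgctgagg
Col5a1 (chr2:27886175-27886424): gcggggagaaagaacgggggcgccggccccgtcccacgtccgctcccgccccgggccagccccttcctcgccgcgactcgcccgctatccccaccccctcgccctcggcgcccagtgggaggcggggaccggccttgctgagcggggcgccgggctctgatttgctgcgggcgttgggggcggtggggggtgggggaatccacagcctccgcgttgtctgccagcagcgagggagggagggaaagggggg
Col11a1 (chr3:114030290-114030539): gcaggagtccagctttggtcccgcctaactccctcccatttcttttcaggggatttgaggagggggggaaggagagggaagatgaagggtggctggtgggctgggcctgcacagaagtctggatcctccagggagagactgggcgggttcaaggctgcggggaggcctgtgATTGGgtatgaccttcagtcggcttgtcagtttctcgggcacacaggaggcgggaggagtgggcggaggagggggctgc
Col15a1 (chr4:47207762-47208011): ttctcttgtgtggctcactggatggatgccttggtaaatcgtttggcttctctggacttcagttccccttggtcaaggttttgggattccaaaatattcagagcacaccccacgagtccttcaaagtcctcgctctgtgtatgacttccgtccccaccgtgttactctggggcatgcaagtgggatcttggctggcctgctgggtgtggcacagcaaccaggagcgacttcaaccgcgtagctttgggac

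The tables held 3916 cells, of which 3852 passed a limit of 8% mitochondrial counts (2921 by 10x and 931 by ss2). Median UMIs per cell were 2185, 5930 and 1607.5 in the 10x libraries, in order of day, and median counts per ss2 cell ran from 393416 to 829590 over the 3 days. The 3 10x libraries shared 3 cell barcodes. The bulk libraries held 3390851 to 11758559 counts in ADM, 19480903 to 35332908 in DMEM and 17320736 to 32947290 when sorted. Against the sort labels, Pdgfra was at 271.8 to 487.6 CPM (counts scaled to a common library total) in the sorted Pdgfra+ libraries and at 6.03 and 8.41 in the Cd36+ libraries, and Cd36, at 1262 and 1510 CPM in the Cd36+ libraries, was lower in all 4 sorted Pdgfra+ libraries, with a lowest value of 51.6 CPM.

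Freshly sorted Pdgfra+ cells carried the highest share of collagen transcripts among the bulk libraries. Collagen genes took 9.04%, 6.29%, 7.93% and 6.66% of all counts in the 4 sorted Pdgfra+ libraries (mean 7.48%). They took 0.284% and 0.291% in the 2 Cd36+ libraries. In bulk samples, fewer cells of a type and less RNA per cell cannot be told apart. In DMEM the 6 libraries held 2.67%, 2.15%, 3.403%, 4.84%, 5.16% and 4.35% (3.76% ± 1.22, SD, n = 6), all below the sorted Pdgfra+ libraries and all above the Cd36+ libraries. In ADM the 6 libraries held 0.368%, 0.357%, 0.314%, 3.13%, 3.25% and 3.103%. Of these ADM libraries, 3 lay near the Cd36+ libraries and 3 within the range of the DMEM libraries. In the same order, the summed level of the brown adipocyte markers in ADM was 58792, 61501, 60846, 1928, 2062 and 1916 CPM, and that of the late progenitor markers was 562.5, 570.1, 523.5, 10877, 9652 and 9368 CPM. In DMEM, in the order of the collagen shares, the brown adipocyte markers were at 27344, 19590, 18841, 1.44 and 3.05 CPM, and under 4 CPM in the last library, and the late progenitor markers at 6645 to 11878 CPM. The part of these marker differences in the collagen values was not tested.

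**Figure D1:**
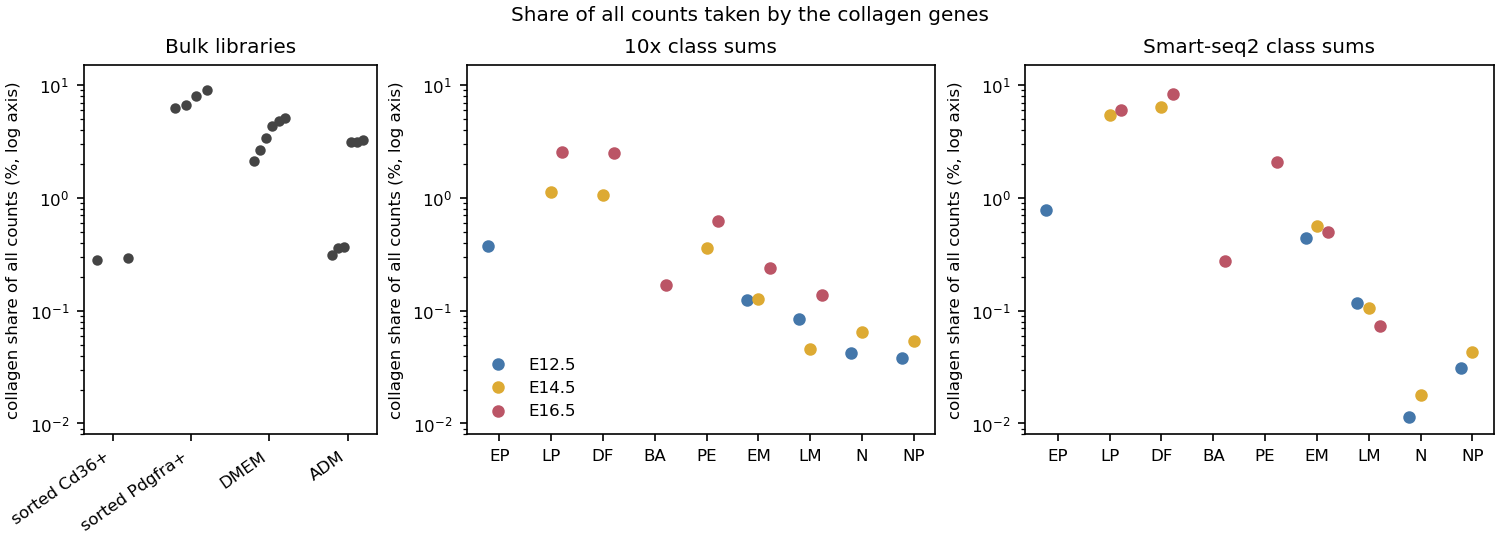
Collagen genes as a percentage of all counts (log axes) in the 18 bulk libraries, 1 point each (left), and in the sums over cells of each class, 10x (middle) and Smart-seq2 (right), coloured by embryonic day. The 4 sorted Pdgfra+ libraries lie between 6.29% and 9.04%, the ADM libraries fall at 2 levels, and LP-like and DF-like cells stand above the other classes on both platforms.

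Type III and type I chains made up most of the collagen counts in Pdgfra+ cells. Per kilobase of exon, Col3a1 stood highest in sorted Pdgfra+ cells at a mean level of 4755 CPM per kb, before Col1a1 (3029), Col1a2 (2467) and Col6a1 (1098). In DMEM the order was Col1a1 (2291), Col3a1 (1814) and Col1a2 (1799). In the Cd36+ libraries Col6a1 (91.9), Col3a1 (79.3) and Col4a1 (70.4) led at far lower levels. Types I and III together were 72.1% to 80.8% of collagen counts in the 4 sorted Pdgfra+ libraries, 87.7% to 88.97% in DMEM, 62.2% to 85.4% in ADM, and 28.8% and 38.1% in the Cd36+ libraries. The chains that assemble together kept a narrow ratio in some types and not in others. The level per length of Col1a1 was 1.1 to 1.33 times that of Col1a2 in sorted Pdgfra+ libraries, 1.11 to 1.6 times in DMEM and 1.16 to 2.36 times in ADM. For type VI, Col6a3 stood at 0.152 to 0.186 times the level of Col6a1 in sorted Pdgfra+ libraries, at 0.0412 to 0.0481 times in DMEM and at 0.0626 to 0.119 times in ADM, so the sorted and cultured ranges were apart. Col3a1 stood at a median of 15.7 times the level of Col5a2, its tail-to-tail neighbour, in sorted Pdgfra+ libraries (12.3 to 18.7), of 16 times in DMEM and of 8.86 times in ADM (6.08 to 11.7). These ratios are descriptions and were not tested.

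Cd36+ cells, the sorted population with high brown adipocyte markers (summed level 30220 and 27885 CPM, against 126.4 to 927 in sorted Pdgfra+), were lower than Pdgfra+ cells for most fibrillar and beaded filament collagens and for 4 of 9 FACIT collagens, and Col4a1 and Col4a2 were not called. Should part of the Pdgfra+ libraries be of E14.5, marker and day cannot be told apart for them. Of 44 collagen genes tested, 22 were lower and 1 was higher (edgeR quasi-likelihood test, Benjamini-Hochberg adjusted p under 0.05). Among all 17586 genes tested in this comparison, 31.6% were called, 17.9% lower and 13.7% higher. The median log2 fold change was -2.62 over the collagen genes and -0.05 over all genes tested. Col1a1, a chain of type I collagen, was at 23564, 14064, 19073 and 15148 CPM in sorted Pdgfra+ libraries and at a mean of 303.6 CPM in the 2 Cd36+ libraries, the lower of which held 279.3 CPM. The groups were far apart, with a log2 fold change of -5.60 (SE 0.849, edgeR adjusted p = 0.000205). Col3a1, the type III chain, was at 32661, 20973, 29305 and 22894 CPM against 518.3 and 363.8 CPM (-5.61, SE 1.07, edgeR adjusted p = 0.00112). Col6a3, a type VI chain, was at 2280, 1721, 2173 and 1939 CPM against 122.4 and 170 CPM (-3.53, SE 0.401, edgeR adjusted p = 2.4e-05). By family, 8 of 11 fibrillar, 5 of 7 beaded filament, 4 of 9 FACIT, 2 of 9 network and 2 of 4 transmembrane genes and Col26a1 fell. The largest other falls were in Col16a1 (FACIT; -5.98), Col24a1 (fibrillar; -5.74) and Col8a1 (network; -5.73). Col6a5 was at 0 counts in both Cd36+ libraries and at 0.791, 1.63, 1.21 and 2.41 CPM in sorted Pdgfra+ libraries. Col4a1, the main chain of basement membrane collagen, was at 689, 885, 792 and 1129 CPM in sorted Pdgfra+ libraries and at 424.5 and 506.3 CPM in Cd36+ libraries (-0.64, SE 0.35, edgeR adjusted p = 0.178). The Col4a1 values of the groups did not overlap, but the difference did not pass the test, and neither did those of Col4a2 (-0.58), Col15a1 (-1.29) and Col18a1 (-1.60). Col27a1, a fibrillar collagen of cartilage, was the gene that rose, at 95.5 and 120 CPM in Cd36+ libraries against 26.5, 43.1, 24.4 and 45.4 CPM (1.90, SE 0.503, edgeR adjusted p = 0.00913). The Cd36+ libraries being technical repeats, each was also left out: 17 and 16 collagen genes were then called, Col1a1 (-5.83 and -5.48), Col3a1 and Col6a3 among them both times, and Col27a1 was not called without library 2 (1.75).

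The enzymes and chaperones that modify, fold, cut and crosslink collagen were lower in Cd36+ cells as well. Of 31 genes of a collagen processing list, 28 fell and none rose by edgeR or by DESeq2. Adamts14, which cuts the amino end of fibrillar procollagen, fell by 5.47 on the log2 scale, the crosslinking enzyme Lox fell by 5.08 and the prolyl hydroxylase subunit P4ha2 fell by 5.07. As a share of all counts the list took 1.42% to 1.76% in sorted Pdgfra+ libraries and 0.139% and 0.151% in Cd36+ libraries.

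**Figure D2:**
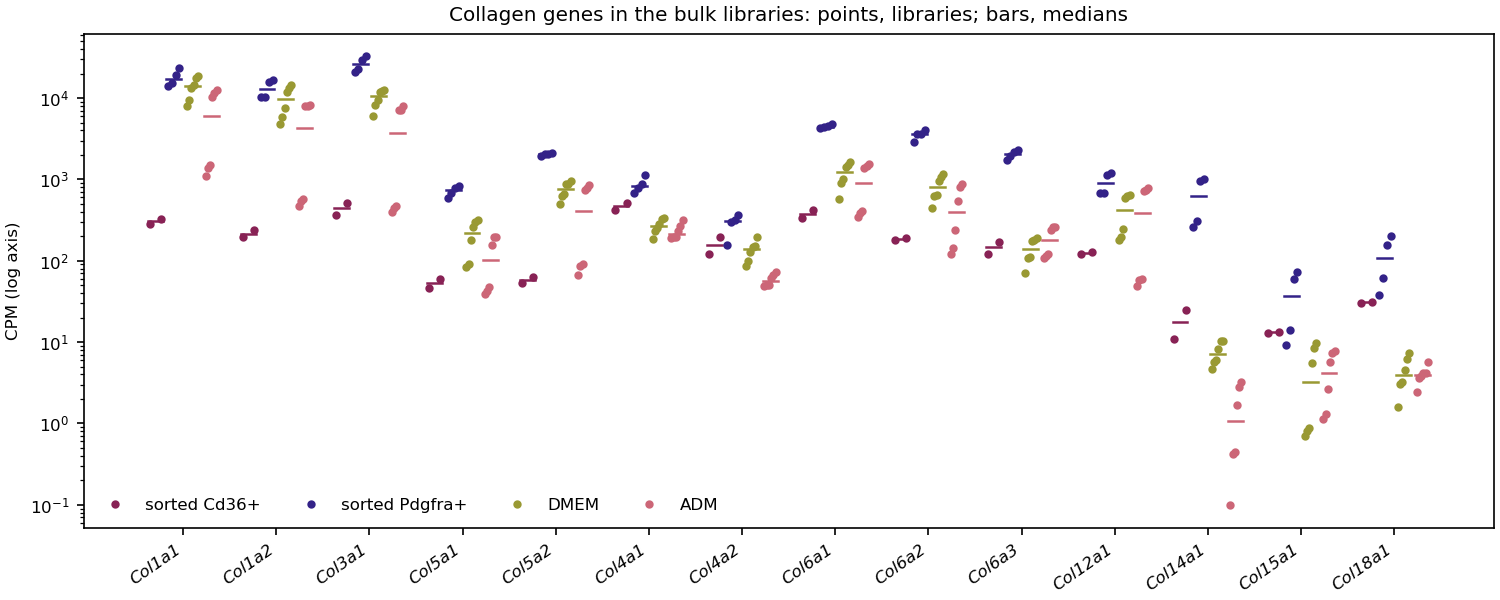
CPM (log axis) of 14 collagen genes in each bulk library, 1 point per library, with a bar at the median of each set. Fibrillar and type VI genes are lower in the Cd36+ than in the sorted Pdgfra+ libraries, Col4a1 lies close in both, and Col14a1 is lower in all cultured libraries.

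In DMEM culture, compared with freshly sorted Pdgfra+ cells, more collagen genes were lower than higher. By the labels the cultured cells came from E14.5 and the sorted cells from E16.5 embryos, so culture and day cannot be told apart wherever the days differ. By the study's text this holds for only part of the sorted libraries. Of 44 collagen genes tested, 23 were lower and 2 were higher, where 53.8% of all genes tested were called, 33.6% lower and 20.2% higher. The median log2 fold change was -1.91 over the collagen genes and -0.31 over all genes. These fold changes were scaled by TMM, which raised the cultured libraries (factors 0.772 to 0.878) against the sorted ones (2.09 to 2.15). With scaling by library totals, chosen after the data were seen, the median over all genes was -1.65, 35 collagen genes were lower and 1 was higher, and calls over all genes were 5.66% higher ones in place of 37.5%. Under either scaling the collagen median lay below the median of all genes (-3.27 against -1.65 with library totals). Col1a1 was at 7923 (lowest), 13964 (median) and 18844 (highest) CPM in DMEM, overlapping the 14064 to 23564 CPM of sorted cells. Its log2 fold change was 0.93 with TMM (SE 0.478, edgeR adjusted p = 0.106) and -0.40 with library totals, so its direction depended on the scaling. Col3a1 was at 6027, 10668 and 12637 CPM in DMEM, below all sorted Pdgfra+ libraries, with a log2 fold change of -0.05 with TMM and -1.39 with library totals, not called under either. Col14a1, a FACIT collagen of dense connective tissue, was at 4.65, 7.08 and 10.4 CPM in DMEM against 256.4, 943, 306.4 and 1014 CPM in sorted cells (-5.03, SE 0.52, edgeR adjusted p = 7.47e-07). Col6a3 was at 70.6, 141.2 and 190.8 CPM in DMEM against 1721 to 2280 CPM (-2.53, SE 0.247, edgeR adjusted p = 4.3e-07). Both groups were apart for these genes, and both were called under either scaling. Col6a1 and Col6a2, the partners of Col6a3, were not called with TMM (-0.60 and -0.79) and were called lower with library totals (-1.94 and -2.13). Col4a2 was at 0.27 with TMM and was called lower with library totals (-1.07), so its direction depended on the scaling. By family, 6 of 9 FACIT, 5 of 11 fibrillar and all 4 transmembrane genes fell with TMM. Col9a3 (-5.34), Col11a2 (-4.86), both of cartilage, Col26a1 (-4.59) and Col20a1 (-6.19) had the largest falls beside Col14a1, and Col18a1 fell by 3.33. Col20a1 had only 4 counts over the 6 DMEM libraries. Col8a1, a short-chain network collagen, was at 159.3, 253.7 and 301.1 CPM in DMEM against 151.6, 49.4, 162.3 and 45.3 CPM in sorted cells (2.57 with TMM, SE 0.517, edgeR adjusted p = 0.000551). With library totals its log2 fold change was 1.24 and did not pass the test. Col28a1 was at 0.61, 3.83 and 8.68 CPM in DMEM against 0.0753, 2.07, 0.982 and 0.567 CPM, overlapping ranges (3.50). Of the processing list, 9 genes rose and 9 fell with TMM. Lox (3.13), the procollagen cleavage enhancer Pcolce (2.45) and the collagen-binding Sparc (2.12) led the rises, and Colgalt2 (-4.44), P3h2 (-3.23) and Adamts14 (-2.71) the falls. Lox was at 3973 to 5618 CPM in DMEM against 1260 to 1517 CPM and was also called with library totals (1.78), where it was the 1 processing gene called higher.

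Between ADM and DMEM, collagen genes were called at a share close to that of all genes tested. Of 44 genes tested, 3 were lower and 1 was higher, where 9.05% of all genes tested were called, 3.91% lower and 5.14% higher. The median log2 fold change was -0.57 over the collagen genes and -0.02 over all genes with TMM, and -0.84 and -0.39 with library totals. Calls over all genes were 56.8% higher ones with TMM, 70.9% with DESeq2 and 21% with library totals. Col1a1 spanned 1090 (lowest), 5950 (median) and 12416 (highest) CPM in ADM and 7923, 13964 and 18844 CPM in DMEM (-1.01, SE 0.419, edgeR adjusted p = 0.132). Col3a1 spanned 393.8, 3761 and 7922 CPM in ADM and 6027, 10668 and 12637 CPM in DMEM (-1.36, SE 0.532, edgeR adjusted p = 0.11). For both genes the ADM and DMEM libraries overlapped, and within each medium the libraries lay at different levels, which enter the spread behind the test. Col1a1 was at 1490, 1397 and 1090 CPM in ADM libraries 1a, 2a and 3a and at 10410, 12416 and 11511 CPM in 1b, 2b and 3b. In DMEM it was at 9412, 7923 and 13271 CPM in 1a, 2a and 3a and at 17395, 18844 and 14657 CPM in the others. Brown adipocyte markers differed between the same libraries, as given with the collagen shares. Their part was not tested, and no test was made between libraries of 1 medium. Col14a1 was at 0.0992, 1.06 and 3.24 CPM in ADM, below all DMEM libraries (-2.30, SE 0.49, edgeR adjusted p = 0.0123). Col8a1 was at 13.95, 81.4 and 146.7 CPM in ADM, below the 159.3 to 301.1 CPM of DMEM (-1.47, SE 0.425, edgeR adjusted p = 0.0409). Col16a1, a FACIT collagen, was at 1.19, 3.99 and 17.4 CPM in ADM and at 13.1, 63.2 and 106.8 CPM in DMEM, overlapping ranges (-3.09, SE 0.555, edgeR adjusted p = 0.00602). Col6a3 was at 108.2 (lowest) and 260 (highest) CPM in ADM and at 70.6, 141.2 and 190.8 CPM in DMEM, overlapping ranges (0.78, SE 0.222, edgeR adjusted p = 0.0399). Leaving out 1 library moved the count of called collagen genes to between 2 and 5, and it was 2 without any of ADM libraries 1a, 2a and 3a, Cd36+ libraries 1 and 2, or DMEM libraries 2a, 3a, 1b and 3b. With library totals, Col8a1 (-1.58) and Col6a3 (0.40) did not pass the test. Among the genes that process collagen, 6 genes fell and 1 rose. P3h1 (-2.23; not called with library totals, -2.29, or with the replicate block, -2.27), Colgalt1 (-2.16) and Bmp1 (-2.10), which hydroxylate, glycosylate and cut procollagen, fell most, and the lysyl hydroxylase Plod1 rose (1.48 with TMM, 0.71 and not called with library totals).

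The single cells were clustered with the collagen and processing genes left out, and each of 17 clusters was named from fixed markers. The classes were late progenitor-like (LP, 753 cells), early muscle-like (EM, 691), neuron-like (N, 633), dermal fibroblast-like (DF, 599), early progenitor-like (EP), neural progenitor or glia-like (NP), late muscle-like (LM), brown adipocyte-like (BA) and, smallest, pericyte-like (PE, 58). The counts of all cells of 1 class in 1 pool (1 platform on 1 day) were added up, and sums of at least 10 cells were compared. LP-like and DF-like cells held the most collagen. In ss2, collagen genes took 5.41% of the E14.5 counts of LP-like cells, against 6.08% in the E16.5 sum, with 6.38% and 8.40% in DF-like cells. PE-like cells at E16.5 (2.098%), EP-like cells at E12.5 (0.774%) and EM-like cells over the 3 days (0.443%, 0.563% and 0.497%) followed. BA-like (0.275%), LM-like (0.0739% to 0.116%), NP-like (0.0308% and 0.0426%) and N-like cells (0.0114% and 0.0179%) were lowest. The 10x sums kept LP-like (1.13% and 2.53%) and DF-like cells (1.07% and 2.48%) above all others, with N-like cells at 0.042% and 0.0643%. The platforms differed in N-like cells. In 10x, types I and III were 49.4% of the collagen UMIs of N-like cells at E12.5 and 57.8% at E14.5. At E12.5 Col1a1 was at 59.7 and Col3a1 at 80.9 CPM in 10x, where the ss2 sum held 1.17 and 0.0272 CPM. Whether values of Col1a1 and Col3a1 at or near these levels in other 10x classes are background was not tested.

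**Figure D3:**
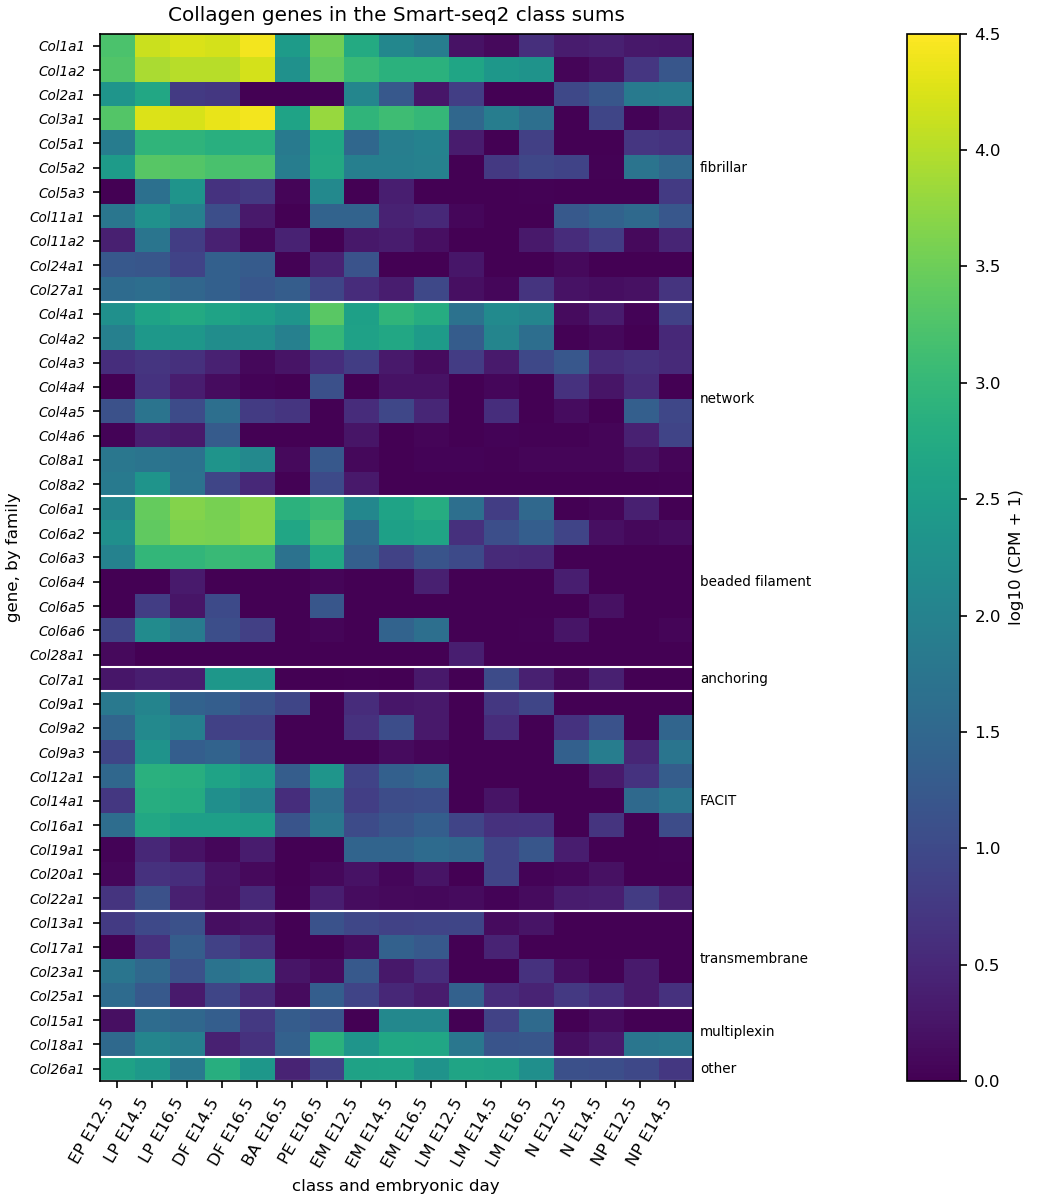
Level of 43 collagen genes, as log10 of CPM plus 1 (colour), in the Smart-seq2 class sums, with genes in rows grouped by family and class and embryonic day in columns. LP-like and DF-like cells are bright over the fibrillar and type VI rows, PE-like and EM-like cells stand out for Col4a1 and Col18a1, and Col7a1 is bright in DF-like cells.

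DF-like and LP-like cells, the classes richest in collagen, differed in single collagen genes. In a single simulated data set of DF-like and LP-like sums alone, 16.7% of calls were of unchanged genes. The reported test was a fit over the sums of all classes, so this share is not its error rate. Of 39 collagen genes tested, 2 were higher and 4 were lower in DF-like cells, where 3.71% of all 13492 genes tested were called, 1.39% higher and 2.32% lower. Over the collagen genes the median log2 fold change was -1.00, and it was -0.05 over all genes. The main chains of types I, III, V and VI were not called, with log2 fold changes of 0.29 for Col1a1 (SE 1.31), 0.33 for Col3a1 (SE 1.25), -0.26 for Col5a1 (SE 0.947) and 0.21 for Col6a1 (SE 1.01), which leave wide intervals. Col7a1, the anchoring fibril collagen of skin, was at 243.9 and 224.4 CPM in DF-like cells at E14.5 and E16.5 in ss2 and at 40.1 and 116.9 CPM in 10x. In LP-like cells it was at 1.38 and 1.17 CPM in ss2 and at 0.457 and 2.59 CPM in 10x, each of the latter from 1 UMI. It was higher in DF-like cells in 4 of 4 pools (7.08, SE 1.17, edgeR adjusted p = 0.00119). At E16.5, 15.1% of DF-like cells had a Col7a1 UMI in 10x (95% exact interval 11.3% to 19.6%; median 1360 UMIs per cell), against 0.418% of LP-like cells (median 1469), and no N-like cell at E12.5 had one (upper exact bound 1.01%; median 3387). These intervals cover counting error only. Col8a1 was at 211.7 and 129.1 CPM in DF-like cells against 53.97 and 47.5 CPM in LP-like cells in ss2, and at 89.2 and 41.9 against 22.8 and 10.4 CPM in 10x (1.78, SE 0.489, edgeR adjusted p = 0.0347). Col18a1, whose end fragment is known as endostatin, was at 1.58 and 3.38 CPM in DF-like cells against 109.3 and 81.7 CPM in LP-like cells in ss2. In 10x it had no UMI in DF-like cells on either day, which allows up to 3.01 and 6.62 CPM on the 2 days, against 18.3 and 62.1 CPM in LP-like cells (-5.50, SE 0.948, edgeR adjusted p = 0.00121). Col2a1, the fibrillar collagen of cartilage, was at 4.44 and 0.0306 CPM against 500.98 and 4.93 CPM in ss2, and at 4.01 and 0 CPM against 160 and 10.4 CPM in 10x (-6.47, SE 1.03, edgeR adjusted p = 0.000555). Col11a1 (-4.58) and Col5a3 (-4.50), which assemble into thin fibrils with types II and V, were also lower in DF-like cells in 4 of 4 pools. Col14a1 (-2.40) and Col6a6 (-3.75) were lower in 4 of 4 pools and did not pass the test. Summed chondrocyte markers were at 232.9 and 111.3 CPM in LP-like and 10.0 and 15.4 CPM in DF-like cells in 10x, and at 305.7 and 230.5 against 13.4 and 7.78 CPM in ss2. In 10x, 6 and 3 of 6 of them had a count in LP-like and 2 and 2 in DF-like cells. Their part in the result was not tested. Summed keratinocyte markers were at 0 to 7.02 CPM in the 4 DF-like sums and at 4.09 to 17.8 CPM in the 4 LP-like sums. The part of keratinocyte markers in the Col7a1 values was not tested. Of the processing list, Loxl3 (-3.19), P3h4 (-1.59) and Plod2 (-1.35) were lower and none was higher by edgeR or DESeq2. The count of called collagen genes was 3 without the 10x pool of E14.5 and 10 without the ss2 pool of E12.5, and 12 with 10x pools only.

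Some of these genes also varied among the 4 bulk libraries of sorted Pdgfra+ cells (1a, 1b, 2a and 2b), whose summed DF markers were at 1408, 141.7, 1457 and 131.1 CPM. In that order Col7a1 was at 280, 4.86, 144.5 and 3.59 CPM and Col8a1 at 151.6, 49.4, 162.3 and 45.3 CPM, both highest in libraries 1a and 2a. Col14a1 was at 256.4, 943, 306.4 and 1014 CPM, Col15a1 at 14.2, 60.1, 9.24 and 73.4 CPM and Col18a1 at 37.6, 155.7, 62.2 and 198.9 CPM, each highest in libraries 1b and 2b, though Col14a1 and Col15a1 (-1.71) were not called between the classes. Col2a1, at 184.91, 204.64, 146.3 and 266.9 CPM, was also higher in libraries 1b and 2b than in 1a and 2a. No groups were formed from these libraries and no test was made.

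The 3 LP-like clusters were not alike in the cartilage-type collagens. In 10x sums by cluster, Col2a1 was at 223.9 CPM in cluster 3 (mostly E14.5), at 10.8 CPM in cluster 7 (mostly E16.5) and at 4.56 CPM in cluster 11 (mostly E14.5). Cluster 3 also had the highest Col9a3 (77.4 CPM) and Col11a1 (167.1 CPM) of the 3, and Tnmd, Aspn and Cnmd, genes of tendon and cartilage, were among its leading genes. Cluster 7 had Col5a3 at 143.1 CPM, Col15a1 at 99.9 CPM and Col4a1 at 437.5 CPM, against 6.45, 16.8 and 70.97 CPM in cluster 3. The 3 DF-like clusters shared Col7a1, at 103.3, 37.3 and 79.7 CPM in clusters 5, 10 and 12, and none of them had a Col18a1 UMI. With collagen genes kept in the clustering, 21 cells (3, 14 and 4 from E12.5, E14.5 and E16.5) formed a cluster led by Col2a1, Mia, Col9a3, Hapln1 and Acan. It was named EP-like, though markers of another class led among its top genes. The part of these cells in the Col2a1, Col9a3 and Col11a1 values was not tested. These cluster values are descriptions.

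**Figure D4:**
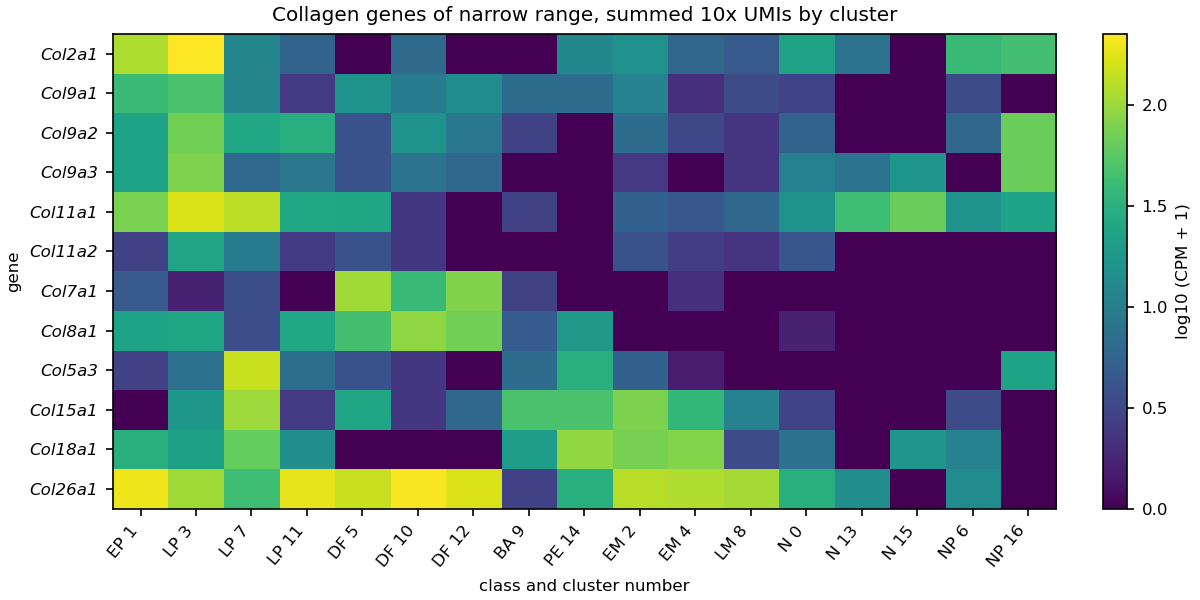
Level of 12 collagen genes of narrow range, as log10 of CPM plus 1 (colour), in 10x UMIs summed by cluster, with clusters labelled by class and number. Col2a1 is brightest in LP-like cluster 3, Col7a1 in the DF-like clusters, Col5a3 in LP-like cluster 7, and Col18a1 is at 0 in all 3 DF-like clusters.

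LP-like cells, compared with EM-like cells, had higher levels of all 11 fibrillar collagen genes, while the basement membrane genes were not called. Of 39 collagen genes tested, 25 were higher and 1 was lower, where 23.8% of all genes tested were called, 1961 of them higher and 1246 lower. The median log2 fold change was 3.67 over the collagen genes and 0.14 over all genes. Col1a1 was at 13731 and 17838 CPM in LP-like cells at E14.5 and E16.5 in ss2 against 120 and 81.4 CPM in EM-like cells, and at 2636 and 7025 against 49.4 and 172.9 CPM in 10x (6.10, SE 1.58, edgeR adjusted p = 0.00759). Col3a1 was at 18007 and 16719 against 1241 and 1005 CPM in ss2, and at 3169 and 6207 against 283.2 and 386.3 CPM in 10x (3.67, SE 1.32, edgeR adjusted p = 0.046). This Col3a1 call was kept by DESeq2 and was lost with library totals (edgeR adjusted p = 0.0556), without the filter on low counts, at 20 cells per sum or more, with scaling without collagen genes, and without any single pool but the ss2 pool of E12.5 (3.25 to 3.93). Col6a3 (6.08), Col14a1 (5.66), Col5a2 (4.63), Col12a1 (4.24) and Col1a2 (3.76) were higher in 4 of 4 pools. By family, 11 of 11 fibrillar, 7 of 8 FACIT, 4 of 5 beaded filament, 2 of 7 network and 1 of 4 transmembrane genes were higher. The genes with the largest fitted fold changes, Col8a2, Col6a5, Col8a1 and Col24a1, had 0, 0, 7 and 2 counts over the 4 EM-like sums, and Col8a2, Col8a1 and Col24a1 had 15913, 6764 and 1453 in LP-like cells. Col4a1 was at 410.8 and 535.2 CPM in LP-like cells against 875 and 618 CPM in EM-like cells in ss2, and at 94.1 and 437.5 against 180 and 496.7 CPM in 10x (-0.55, SE 0.709, not called). Col4a2 (-0.43), Col15a1 (-1.33) and Col18a1 (-1.65, edgeR adjusted p = 0.0692) were not called either. Col18a1 was at 482.5 and 451.2 CPM in EM-like cells against 109.3 and 81.7 CPM in LP-like cells in ss2. Col19a1, a FACIT collagen known from muscle, was the gene that was lower in LP-like cells, at 2.21 and 0.673 CPM against 26.95 and 36.2 CPM in ss2 (-3.79, SE 1.05, edgeR adjusted p = 0.0111). Among the genes that process collagen, 21 genes were higher and none was lower by edgeR or DESeq2, led by Colgalt2 (6.13), Adamts2 (5.52) and Loxl3 (4.81).

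LM-like cells, which carry the markers of differentiating muscle, had less collagen than EM-like cells. Of 39 collagen genes tested, 15 were lower, where 25.1% of all genes tested were called and 17% were lower. None was higher by edgeR, and 1 was by DESeq2, where 8.06% of all genes were higher by edgeR. Over the collagen genes the median log2 fold change was -2.54, and it was -0.16 over all genes. Col4a1 was at 47.8, 142.5 and 110 CPM in LM-like cells in ss2 (in order of day from E12.5) against 365.9, 875 and 618 CPM in EM-like cells, and at 76.5, 32.6 and 40.5 against 160, 180 and 496.7 CPM in 10x. It was lower in 6 of 6 pools (-2.45, SE 0.658, edgeR adjusted p = 0.00831), as were Col4a2 (-2.54) and Col18a1 (-3.61, SE 0.691, edgeR adjusted p = 0.00043). Col15a1 was at 0, 6.73 and 35.5 CPM in LM-like cells against 0, 122.9 and 127.3 CPM in EM-like cells in ss2, and both classes were at 0 at E12.5 on both platforms (-2.20, SE 0.798, edgeR adjusted p = 0.0444). Col5a1 (-4.72), Col5a2 (-3.81), Col6a2 (-3.77), Col14a1 (-4.76), Col2a1 (-4.31), Col17a1 (-4.07) and Col11a1 (-5.09) were lower. Col11a1 was higher in 2 of 6 pools, and its direction turned with 10x pools only (0.55). Col6a6 had 2 counts and Col12a1 had 9 counts in all LM-like cells, against 3631 and 3029 in EM-like cells. Col1a1 (-4.29), Col3a1 (-3.13) and Col6a1 (-2.68) did not pass the test. Col26a1 was at 419.1, 396.3 and 173.3 CPM against 395.4, 413.3 and 207.6 CPM in ss2 (-0.01, SE 0.321). Of the processing list, 12 genes were lower, with the largest falls in Colgalt2 (-7.98), Pcolce2 (-5.64) and Lox (-5.39). Ppib, a chaperone of the secretory pathway, was higher (1.34).

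**Figure D5:**
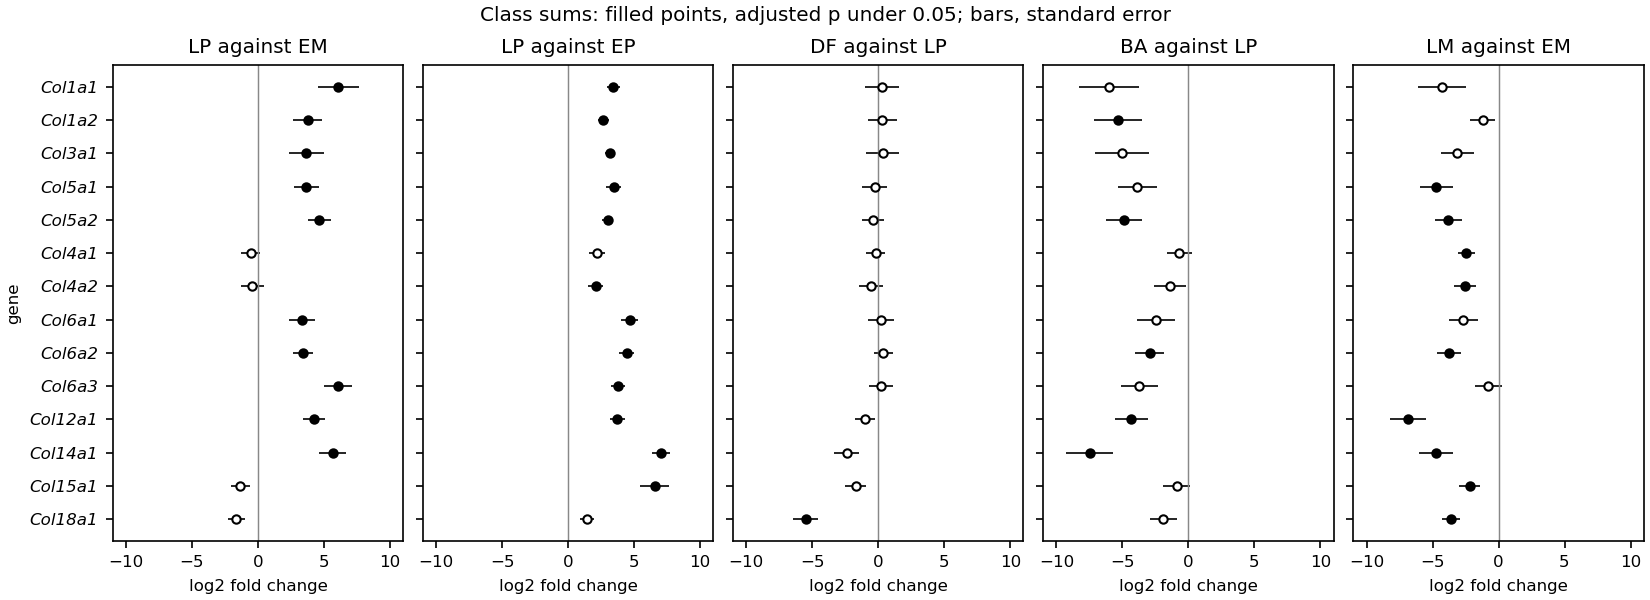
Fitted log2 fold change with its standard error (bar) for 14 collagen genes in 5 comparisons of class sums, with filled points at an edgeR adjusted p under 0.05. Types I, III, V and VI are high in LP-like against EM-like and EP-like cells, Col4a1 (-0.69), Col15a1 (-0.90) and Col4a2 (-1.41) are not called in BA-like against LP-like cells, and of these genes Col18a1 alone is called in DF-like against LP-like cells.

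BA-like cells, found at E16.5, were lower than LP-like cells of the same 2 pools for most collagens, with type IV and the multiplexins not called. Of 39 collagen genes tested, 20 were lower, where 28.7% of all genes tested were called and 17.3% were lower. None was higher by edgeR or DESeq2, where 11.4% of all genes were higher by edgeR. The median log2 fold change was -5.04 over the collagen genes and -0.41 over all genes. The ss2 sum of BA-like cells held 14 cells. The limit of 8% mitochondrial counts had removed 51 ss2 cells of E16.5. With all deposited cells the BA-like cluster held 62 ss2 cells, in place of 15. Col1a2 was at 187.9 CPM in BA-like against 10507 CPM in LP-like cells in ss2 and at 158.7 against 5330 CPM in 10x (-5.31, SE 1.83, edgeR adjusted p = 0.0342). Col1a1 (-5.99, edgeR adjusted p = 0.0523) and Col3a1 (-5.04, edgeR adjusted p = 0.0709) did not pass the test, at 292.4 against 17838 CPM and 400.6 against 16719 CPM in ss2. Col5a2 (-4.87), Col12a1 (-4.32), Col14a1 (-7.49) and Col26a1 (-5.59) were lower in both pools. Col6a6, Col9a3, Col17a1, Col2a1 and Col19a1 were called lower and had no count in BA-like cells, which allows up to 5.95 CPM in 10x. Of these, Col6a6 (82.8 CPM), Col9a3 (7.77 CPM) and Col2a1 (10.4 CPM) exceeded that limit in the 10x LP-like sum. In the bulk Cd36+ libraries Col2a1 was detected, at 54.46 and 60.82 CPM. There it was not called against sorted Pdgfra+ cells (-1.52, SE 1.19, edgeR adjusted p = 0.353). Col4a1 was at 222.7 CPM in BA-like against 535.2 CPM in LP-like cells in ss2 and at 260 against 437.5 CPM in 10x (-0.69, SE 0.946). Col15a1 (-0.90), Col4a2 (-1.41) and Col18a1 (-1.91) were likewise not called. Among the genes that process collagen, 23 genes were lower and none was higher by edgeR or DESeq2. The largest fitted falls were in Colgalt2, P4ha3 and Loxl4, which had no count in BA-like cells, and for Loxl4 the direction turned with all deposited cells (0.01).

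LP-like cells, summed at E14.5 and at E16.5, had more collagen than EP-like cells, summed at E12.5, so class and day cannot be told apart. The study named collagens as an example for this contrast on these cells, so their direction here is not independent evidence. Of 40 collagen genes tested, 19 were higher, where 6.03% of 14074 genes tested were called and 4.97% were higher. None was lower by edgeR or DESeq2, where 1.06% of all genes were lower by edgeR. The median log2 fold change was 2.90 over the collagen genes and 0.11 over all genes, and 2.50 and -0.29 with library totals, when 15 were called. Calls over all genes were 82.4% higher ones with TMM, 71.5% with DESeq2 and 56.3% with library totals. Col1a1 was at 1658 CPM in EP-like cells in ss2 and 719 CPM in 10x (LP-like levels above; 3.43, SE 0.475, edgeR adjusted p = 0.0012). Col3a1 was at 1949 and 920 CPM (3.16, SE 0.398, edgeR adjusted p = 0.000283). Col6a1 was at 111.3 CPM in EP-like against 2748 and 4642 CPM in LP-like cells in ss2, and at 70.2 against 450.8 and 1017 CPM in 10x (4.66, SE 0.645, edgeR adjusted p = 0.002). Col14a1 was at 4.26 against 635 and 591 CPM in ss2, and at 7.58 against 178.1 and 377.9 CPM in 10x (7.01, SE 0.684, edgeR adjusted p = 3.06e-05). Col15a1 was at 0.506 against 37.9 and 30.7 CPM in ss2, and had no UMI in EP-like cells in 10x (6.55, SE 1.13, edgeR adjusted p = 0.00981). Thus 7 of 11 fibrillar, 4 of 5 beaded filament and 4 of 9 FACIT genes were higher. Col6a6 (4.37) and Col11a2 (4.36) were also higher, though Col11a2 was at -2.51 and not called with collagen genes kept in the clustering. In that clustering the EP-like class took in the cluster of 21 cells led by Col2a1, with Col11a2 also among its leading genes. The part of these cells in the Col11a2 value was not tested. Col17a1 and Col4a4, with 4 and 1 counts in EP-like cells, had the largest fitted fold changes beyond these. Col2a1 (0.25), Col8a1 (0.13), Col9a1 (0.04) and Col24a1 (0.31) did not pass the test. Of the processing list, 17 genes were higher and none was lower by edgeR or DESeq2, led by Adamts14 (3.44), Adamts2 (3.18) and Sparc (3.13). The comparison rests on 1 ss2 and 1 10x pool of E12.5: without the ss2 pool no collagen gene was called.

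Over days within a class, 1 collagen gene was called per comparison after E14.5, and it was Col2a1 each time. Each platform had 1 pool per day, shared by all classes, so day cannot be told apart from pool, 10x library or ss2 plate. The Col2a1 calls of the 3 classes thus draw on the same pools and are not independent. From E14.5 to E16.5, Col2a1 went from 500.98 to 4.93 CPM in LP-like cells in ss2 and from 160 to 10.4 CPM in 10x (-5.60, SE 0.789, edgeR adjusted p = 0.00558). The bulk libraries labelled E16.5 held more Col2a1. Sorted Pdgfra+ libraries were at 184.91, 204.64, 146.3 and 266.9 CPM, and Cd36+ libraries at 54.46 and 60.82 CPM. The day of part of the sorted Pdgfra+ libraries is uncertain, and the cause of this difference from the class sums was not tested. Over both platforms, LP-like cells of E14.5 lay mostly in clusters 3 and 11 and those of E16.5 mostly in cluster 7. In ss2, cluster 7 held only 25 cells, against 90 LP-like cells of E16.5, which thus lay mostly in clusters 3 and 11. In DF-like cells, mostly of cluster 10 at E14.5 and of cluster 5 at E16.5, Col2a1 went from 4.44 to 0.0306 CPM in ss2, and from 4 UMIs (4.01 CPM) to none in 10x, which allows up to 6.62 CPM (-6.72, SE 1.16, edgeR adjusted p = 0.0246). EM-like cells lay mostly in cluster 4 at E14.5 and, over both platforms, mostly in cluster 2 at E16.5. Cluster 2 held only 51 ss2 cells, while 49 ss2 EM-like cells were of E12.5 and cluster 4 held 5 cells of that day. The 59 ss2 EM-like cells of E16.5 thus lay mostly in cluster 4. Col2a1 in EM-like cells went from 16.4 to 0.875 CPM in ss2 and from 9 UMIs (5.05 CPM) to none in 10x. The 10x value allows up to 11.04 CPM, and the log2 fold change was -4.23 (SE 0.896, edgeR adjusted p = 0.047). In these 2 classes a difference was thus not detectable at the depth of the 10x sums. Their ss2 levels at E14.5, 16.4 CPM in EM-like and 4.44 CPM in DF-like cells, were near or below those of neural classes. N-like cells held 15.06 CPM and NP-like cells 75.88 CPM of Col2a1 in that pool. None of 42 collagen genes tested was higher in these 3 comparisons, where 0.0928% of all genes tested were called in LP-like (0.0357% higher, 0.0571% lower), 0.264% in DF-like (0.0642% and 0.2%) and 0.293% in EM-like cells (0.0999% and 0.193%). At an unadjusted p under 0.05 there were 8, 6 and 4 collagen genes in LP-like, DF-like and EM-like cells, and DESeq2 called none in any of the 3. Summed chondrocyte markers in LP-like cells went from 305.7 to 230.5 CPM in ss2 and from 232.9 to 111.3 CPM in 10x. The single markers did not go alike. By 10x cluster, Sox9 was at 142.6 CPM in cluster 3 (mostly E14.5) and 102.6 CPM in cluster 7 (mostly E16.5). Acan, Matn1, Matn4 and Hapln1 had 43, 34, 31 and 49 UMIs in cluster 3 and 0, 0, 0 and 2 in cluster 7. In cluster 11 (mostly E14.5) these 4 had none, and Sox9 was at 65.35 CPM. The part of these markers in the result was not tested. No difference of the day change between classes was called for a collagen gene by edgeR (LP-like minus EM-like, -1.37 for Col2a1, adjusted p = 1, and DF-like minus LP-like, -1.12, adjusted p = 1) or by DESeq2, where 0.143% (0.0714% in each direction) and 0.0285% (0.0143% in each direction) of all genes were called by edgeR. In these tests 3 and 4 collagen genes had an unadjusted p under 0.05. No collagen gene was called without the ss2 pool of E16.5 in any of the 3 classes, nor without the ss2 pool of E14.5 in EM-like and DF-like cells, and up to 5 were called without a 10x pool.

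From E12.5 to E14.5 in EM-like cells, 1 of 42 collagen genes was higher and 3 were lower, where 1.48% of all 14011 genes tested were called, 0.55% higher and 0.935% lower. Most EM-like cells lay in cluster 2 at E12.5 and in cluster 4 at E14.5. Here too, day cannot be told apart from pool. Col6a6, a type VI chain, went from 0 to 25.8 CPM in ss2 and from 2.23 (1 UMI) to 5.61 CPM in 10x (8.56, SE 1.69, edgeR adjusted p = 0.0166). Col24a1 went from 13.1 to 0.0365 CPM in ss2 and from 1 UMI to none in 10x, and Col23a1 from 17.3 to 0.986 CPM and from 4 UMIs to none, both lower (edgeR adjusted p = 0.0195 and 0.0384). Col8a2 went from 1.00 CPM in ss2 and 4.45 CPM in 10x to no count (edgeR adjusted p = 0.0245). Col15a1 was at 0 on both platforms at E12.5 (up to 6.68 CPM is allowed in 10x) and at 122.9 CPM in ss2 and 34.8 CPM in 10x at E14.5, and 127.3 and 198.7 CPM at E16.5. This was the largest fitted difference of any collagen gene between these days, and it did not pass the test (edgeR adjusted p = 0.056). Without the ss2 pool of E12.5 no collagen gene was called, while 8 to 14 were called without the 10x pools or the ss2 pool of E16.5.

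PE-like cells, which carry pericyte markers, stood highest of all classes in type IV collagen. Col4a1 was at 590 and 1633 CPM in 10x at E14.5 and E16.5 (13 and 30 cells; 95% exact Poisson intervals 460 to 745 and 1312 to 2010) and at 2219 CPM in ss2 (15 cells). The next highest Col4a1 sum was 875 CPM in ss2 (EM-like, E14.5) and 496.7 CPM in 10x (EM-like, E16.5). Col4a2 followed at 336.9 and 899 CPM in 10x and 978 CPM in ss2, and Col18a1 at 739 CPM in ss2. Endothelial markers summed to 69.01 CPM in the ss2 sum (4 of 5 detected). The LP-like, DF-like, EM-like and BA-like ss2 sums held 36.85 to 222.1 CPM, the highest with 1 of 5 detected. In 10x these markers summed to 33.7 and 36.7 CPM in PE-like cells (1 and 2 of 5 detected), against 4.41 to 41.42 CPM in the same 4 classes. Blood and macrophage markers summed to 184.2 CPM in the ss2 sum (5 of 5 detected), against 0.0411 to 33.8 CPM in the other ss2 sums, and to 75.8 and 0 CPM in 10x. Tendon markers summed to 185.2 CPM in the ss2 sum (3 of 5 detected), against 362.4 and 283.9 CPM in LP-like cells, and to 8.42 and 18.4 CPM in 10x. The part of the endothelial, blood and tendon markers in the result was not tested. No test was made for this class. Col7a1 was not detected in PE-like cells, with 0 UMIs in the 10x cells, which allows up to 25.3 and 55.05 CPM on the 2 days. In N-like cells, Col9a3 (23.2 and 79.95 CPM) and Col11a1 (16.9 and 25.5 CPM) were detected in ss2 at E12.5 and E14.5, while Col1a1 was at 1.17 and 1.44 CPM. Col4a3, Col6a4, Col10a1, Col20a1 and Col28a1 did not pass the filter on low counts in the class comparisons, except Col20a1 in LP-like against EP-like cells and Col6a4, Col20a1 and Col28a1 in the day comparisons. Col28a1 had no count in most ss2 sums and Col10a1 at most 24 CPM in 10x (NP-like cells at E14.5, from 2 UMIs).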

How the data were processed

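The authors deposited counts in 3 tables: UMI counts per gene and cell from 10x (Cell Ranger), expected counts per gene and cell from Smart-seq2 (kallisto 0.44.0, with values that need not be whole) and read counts per gene of the bulk libraries (the processing notes name STAR among the tools), all on mouse mm10. Per the labels and the methods, cells were kept for YFP and for gene or count limits before deposit, and no doublets were called here. The deposited tables held fewer cells than the study's text states. The bulk column names do not carry the Thy1 sign for 16 of 18 libraries, so the planned comparisons between Thy1 groups were replaced by Pdgfra-/Cd36+ against Pdgfra+, ADM against DMEM, and DMEM against sorted Pdgfra+. By the methods, cultured libraries were 3 wells per sort and uncultured ones technical repeats of a sort, so p-values measure the spread between wells, repeats and sorts. Repeats could not be matched to each other for sorted Pdgfra+ cells and were kept as libraries. The members and lists were chosen with earlier results of these data known.

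Cells over 8% mitochondrial counts were removed. The platforms and days were integrated in Seurat 5.3.0 (R 4.3.3) without the collagen and processing genes, and 17 clusters were named from fixed marker lists. The threshold for naming was changed after the scores were seen. Counts were summed per class and pool (at least 10 cells), ss2 sums being rounded to whole numbers. Bulk counts and class sums were fitted with edgeR 4.0.16 (quasi-likelihood test, TMM scaling, Benjamini-Hochberg adjustment over all genes tested, adjusted p under 0.05), class comparisons with the pool as a block and LP-like against EP-like with platform as a term. In day comparisons the 2 platforms were the replicates. Alternatives were DESeq2 1.42.0, other scalings, filters, clusterings and leaving out each library or pool. Bulk CPM were per library total and divided by exon length (GENCODE vM21) where genes were compared. Intervals are exact at 95%, and a count of 0 allows up to 3 counts. Intervals and floors cover counting error only.

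Members named with values were 14 core genes and up to 4 called members with the largest change per direction, and up to 3 genes of the processing list. Others (Col2a1, Col7a1, Col19a1 and single values) were named under this rule or after their values were seen. On simulated data for ADM against DMEM (16458 genes), 23% of 2-fold and 49% of 4-fold changes were recovered, and for DF-like against LP-like (13551 genes) 28% and 62%. Of the calls in these simulations, 5.26% and 16.7% were of unchanged genes. Each was a single simulated data set. The one for DF-like against LP-like held the sums of these classes alone, where the reported fit held all classes. Analyses ran in Python 3.11.15.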

Additional observations from a re-analysis of the deposited data

Results flagged for a closer look

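Over 75 gene and set combinations of 24 genes checked for a library far from the others of its set, 2 stood out, where chance gives about 1 in 20. Col6a5 in DMEM was at 0.821 CPM in library 2a and at 0.177 to 0.39 CPM in the other 5. Col24a1 in ADM was at 2.95 CPM in library 3b, the shallowest bulk library at 3390851 counts, and at 0 to 0.645 CPM in the other 5.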

How the results depend on the processing

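Over 4126 alternative values of the named results, 3762 kept their direction and side of the threshold, 77 newly passed it, 54 turned direction and the rest no longer passed it. Of the turned values 4 were called in either fit: Col4a2 in DMEM against sorted Pdgfra+ with library totals (-1.07), Col11a1 in LM-like against EM-like with 10x pools only (0.55), Loxl4 in BA-like against LP-like with all deposited cells (0.01) and Col11a2 in LP-like against EP-like with collagen genes kept in the clustering (-2.51). The other 50 were called in neither fit. With library totals these were Col1a1 (-0.40), Col1a2 (-0.46) and Col12a1 (-1.16) in DMEM against sorted Pdgfra+, and Col4a1 (-0.20) and Col18a1 (-0.14) in ADM against DMEM. With 10x pools only they were Col1a1 (-0.02) and Col4a1 (0.08) in DF-like against LP-like, Col6a3 in LM-like against EM-like (1.1) and Col4a2 in LP-like against EM-like (0.04). For DF-like days they were Col14a1 at resolution 0.4 (0.93) and with collagen genes kept (0.91), and Col15a1 with DESeq2 (0.59). Col12a1 in ADM against DMEM, at 0 to 2 decimals, was at 0.07 with DESeq2 and 0.00 with the replicate block. Leaving out 1 library or pool turned 36 more, with these ranges: for ADM against DMEM Col6a1 (-0.26 to 0.02) and Col12a1 (-0.26 to 0.20), for DMEM against sorted Col3a1 (-0.14 to 0.06) and Col5a2 (-0.18 to 0.00), for DF-like against LP-like Col4a1 (-0.35 to 0.02), for EM-like E14.5 against E12.5 Col1a2 (-0.35 to 0.20), for later EM-like days Col1a1 (-0.63 to 1.92), Col3a1 (-0.08 to 0.28), Col5a2 (-1.72 to 0.23), Col4a1 (-0.12 to 1.19), Col4a2 (-0.61 to 0.98), Col6a2 (-0.19 to 0.67) and Col12a1 (-0.23 to 0.68), for LP-like days Col18a1 (-0.04 to 1.81), and for DF-like days Col12a1 (-0.32 to 0.97), Col15a1 (-1.84 to 3.51) and Col18a1 (just below 0 to 1.46). Of the alternative counts of called collagen genes, 160 were within 1.5 times the reported count. The others were, for DF-like against LP-like, 10 at clustering resolution 0.4 and 12 with 10x pools only; for LM-like against EM-like 9 and for LP-like against EP-like 5 with 10x pools only, and 11 with collagen genes kept in the clustering. With DESeq2 the count was 1 for EM-like E14.5 against E12.5 and 0 for each later day comparison. It was 0 for EM-like E16.5 against E14.5 with scaling without collagen genes, at resolution 0.4 and with collagen genes kept in the clustering, and 0 for LP-like days with the last of these. Calls over all genes that were higher went from 34.1% to 47.8% (EM-like, DESeq2), from 38.5% to 16.7% (LP-like, library totals) and from 24.3% to 36.7% (DF-like, DESeq2) in the later day comparisons. Over all genes, 3250 calls were made by DESeq2 and 853 with library totals for ADM against DMEM, in place of 1591. DESeq2 gave 1489 in place of 848 for LP-like against EP-like and 36 higher calls in place of 77 for EM-like E14.5 against E12.5, and library totals gave 94 in place of 37 for DF-like days. The cause was not tested.

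Leaving out 1 library or pool gave 16 to 25 called collagen genes for Cd36+ against Pdgfra+, 2 to 5 for ADM against DMEM, 24 to 26 for DMEM against sorted, 3 to 10 for DF-like against LP-like, 11 to 16 for LM-like against EM-like, 18 to 29 for LP-like against EM-like, 15 to 24 for BA-like against LP-like, 0 to 21 for LP-like against EP-like, 0 to 14 for EM-like E14.5 against E12.5 and 0 to 5 for each later day comparison. Same-numbered ADM and DMEM libraries did not deviate together (correlations of deviations -0.0061, -0.0107 and -0.000925), nor did sorted ones (0.0319), so the numbers were not taken as pairs. With the replicate number as a block, the count was 2 for ADM against DMEM, and no other bulk count moved by over 1.5 times. BA-like against LP-like could not be run with at least 20 cells per sum, with 10x pools only or without either E16.5 pool, nor the day comparisons with 10x pools only.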
